A study of Homo sapiens with 10 samples.

Results

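The genes described are the epidermal growth factor (EGF) receptor family, its ligands and the feedback inhibitor ERRFI1, in PC-3 prostate cancer cells exposed to gefitinib, an inhibitor of the EGF receptor kinase, and to the plant flavonoid luteolin. The 10 members are the receptors EGFR, ERBB2 and ERBB3, the ligands AREG, EREG, HBEGF, TGFA, BTC and NRG1, and ERRFI1. They were chosen by the gene name printed in the scanner files, on non-control spots, and cover 38 of 43376 spots, 20 of 41000 probes and 10 of 28090 named genes. The study hybridised Cy3-labelled RNA of PC-3 cells to 10 Agilent whole human genome arrays in a single color, with 5 groups of 2 arrays. One group was taken before treatment (0 h), and the rest 24 h after solvent alone (DMSO), luteolin at 60 µM, gefitinib at 60 µM, or the pair of drugs at that dose of each. The drugs were dissolved in DMSO, and all groups are 1 established cell line grown in medium with serum. The titles call the 2 samples of a group biological replicates, whereas the design text speaks of samples run in duplicate, and p-values therefore measure the spread between these arrays, which may be technical.

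EGF receptor family proteins span the plasma membrane and pair with one another when a ligand binds, which switches on their kinases and, through adaptor proteins, the RAS, RAF, MEK and ERK cascade. EGFR binds AREG, TGFA and also EREG, HBEGF and BTC, ERBB3 binds NRG1 and has little kinase activity of its own, and ERBB2 has no known soluble ligand and serves as a partner. The ligands are made as membrane-bound precursors that sheddases release. ERRFI1, also called MIG6, binds the kinase domain and blocks it, and is known as a feedback inhibitor. PC-3 is an epithelial line, and on these arrays the epithelial genes KRT8, KRT18, KRT19, EPCAM and CDH1 were well above background on all 10 arrays and the leukocyte gene PTPRC on 0. Dim signals of 2 further leukocyte genes were above background on all 10 arrays (CD14 from -5.03 to -2.74 and CD3E from -4.89 to -3.13, log2 relative to the array), and both rose on gefitinib-labelled arrays (1.81 and 1.25 against DMSO), CD14 also on combination-labelled arrays (1.64). Of 4 fibroblast and endothelial genes, VWF was not tested and 1 was called against DMSO, COL1A1, which fell by 2.22 on gefitinib-labelled and by 1.54 on combination-labelled arrays. COL3A1 differed by -0.69 (adjusted p = 0.158) and 0.68 (adjusted p = 0.182) there, and PECAM1 by -0.38 (adjusted p = 0.454) and -0.25 (adjusted p = 0.647). The other CD3E probe was well above background on 3 arrays. Of the probes named KLK3, a prostate gene, 1 was well above background on all 10 arrays and the other 2 on 0 arrays. The first was bright, from 3.38 to 5.14, and rose on gefitinib-labelled arrays (1.36 against DMSO, limma adjusted p = 0.00395). It was not called on luteolin-labelled (0.16) or combination-labelled arrays (0.83). The part of these markers in the results below was not tested.

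For the 6 arrays of drug-treated cells, the treatment in the name of the scanner file differs from the treatment in the sample's labels. Arrays labelled luteolin have gefitinib in the file name, arrays labelled gefitinib have both drugs, and arrays labelled combination have luteolin. Groups below are named by label, as luteolin-labelled, gefitinib-labelled and combination-labelled arrays. A value against DMSO keeps its size under the file names and only its treatment would be read differently, whereas comparisons between drug groups and the interaction change. The 75th percentile of the processed signal, a measure of array brightness, lay between 1041 and 1402 on the 0 h, DMSO and luteolin-labelled arrays and between 539.8 and 865 on the gefitinib-labelled and combination-labelled arrays. Signals were divided by that percentile, so the values below are log2 relative signals and describe a gene relative to its array. On this scale the median of all 19717 genes tested was 0.08 (log2) above DMSO on luteolin-labelled arrays, 0.22 on gefitinib-labelled and 0.16 on combination-labelled arrays. The part of array brightness in the results was not tested. The arrays lay on 3 slides, and values within a slide are given beside the results.

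EGFR, AREG, BTC and ERRFI1 are among the members with a called change described below, which for EGFR and BTC was not against DMSO but between drug groups. The 250 bases in front of the transcription starts of these genes are shown so that a reader can set the sequence beside the readings. The sequences are those of RefSeq on GRCh38.p14, which had an entry for 8 of the 9 members looked up (ERBB3 had no entry), in the sense of the gene, and capitals mark the motifs found on either strand. The motifs searched were TGANTCA (AP-1), TGACGTCA (cAMP response element), TATANA (a short form of the TATA box), GGGCGG (Sp1), CCAAT and the CArG box by name. EGFR, the drug's target, has 2 entries and the first, at chr7:55018767-55019016 on the plus strand, held 2 GGGCGG matches and no TATANA. The second, at chr7:55109589-55109838, held 2 TGANTCA and 2 TATANA matches and no GGGCGG, and is not shown. AREG, at chr4:74444886-74445135 on the plus strand, held 1 TGACGTCA, 1 TATANA and 1 GGGCGG match. BTC, at chr4:74794524-74794773 on the minus strand, held 0 matches to any of the motifs. ERRFI1, at chr1:8026310-8026559 on the minus strand, held 3 overlapping TATANA matches, 1 GGGCGG and 1 CCAAT. HBEGF, also called below, had an entry with 5 GGGCGG matches and none of the other motifs, and is not shown.
EGFR: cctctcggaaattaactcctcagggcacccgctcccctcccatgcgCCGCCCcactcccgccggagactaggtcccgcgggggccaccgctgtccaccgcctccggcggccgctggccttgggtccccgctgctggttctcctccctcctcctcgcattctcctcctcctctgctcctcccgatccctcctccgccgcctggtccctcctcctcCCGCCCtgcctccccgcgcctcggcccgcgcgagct
AREG: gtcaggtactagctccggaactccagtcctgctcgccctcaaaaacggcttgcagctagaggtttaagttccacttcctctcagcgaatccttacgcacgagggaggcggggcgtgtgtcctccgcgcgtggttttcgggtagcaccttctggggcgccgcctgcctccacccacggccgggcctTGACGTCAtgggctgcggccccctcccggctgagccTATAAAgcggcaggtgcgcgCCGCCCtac
BTC: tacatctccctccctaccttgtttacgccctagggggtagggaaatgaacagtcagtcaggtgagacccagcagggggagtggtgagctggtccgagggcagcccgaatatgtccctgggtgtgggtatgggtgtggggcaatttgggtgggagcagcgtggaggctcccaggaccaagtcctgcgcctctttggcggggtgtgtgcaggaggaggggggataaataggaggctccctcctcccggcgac
ERRFI1: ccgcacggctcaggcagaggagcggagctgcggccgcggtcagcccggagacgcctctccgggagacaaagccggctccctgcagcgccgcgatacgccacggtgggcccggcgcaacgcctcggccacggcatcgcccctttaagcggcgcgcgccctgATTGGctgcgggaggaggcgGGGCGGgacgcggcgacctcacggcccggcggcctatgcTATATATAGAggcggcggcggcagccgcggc
Among 35114 promoters of the same length, TGANTCA was found in 6.57%, TGACGTCA in 1.65%, TATANA in 17.7%, GGGCGG in 42.6%, CCAAT in 32% and the CArG box in 1.16%. The share of G and C was 73.6% for EGFR, 65.2% for AREG, 62% for BTC and 75.2% for ERRFI1. A match is a description of the letters, and binding was not measured.

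ERRFI1 was the member that rose against DMSO in every drug group, and the other called changes differed from group to group. Of the 10 members, 9 had a probe that was measured above background in some group and were tested, and NRG1 was not. A change was called at a limma adjusted p under 0.05 and at least 2-fold. On luteolin-labelled arrays 2 of 9 members rose (ERBB3 and ERRFI1) and 0 fell, where 7.22% of all genes tested rose and 6.17% fell. On gefitinib-labelled arrays 1 rose (ERRFI1) and 1 fell (AREG), against a background of 15.6% and 14.3% of genes. On combination-labelled arrays 2 rose (HBEGF and ERRFI1) and 0 fell, where 12.1% of genes rose and 7.69% fell. With 9 members, counts of 1 or 2 describe single genes and not the group, so the values of each member follow. The median change of the 9 members was 0.27, 0.28 and -0.23 (log2) in the same order, beside the medians of all genes given above. The 3 comparisons share the same DMSO arrays.

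**Figure D1:**
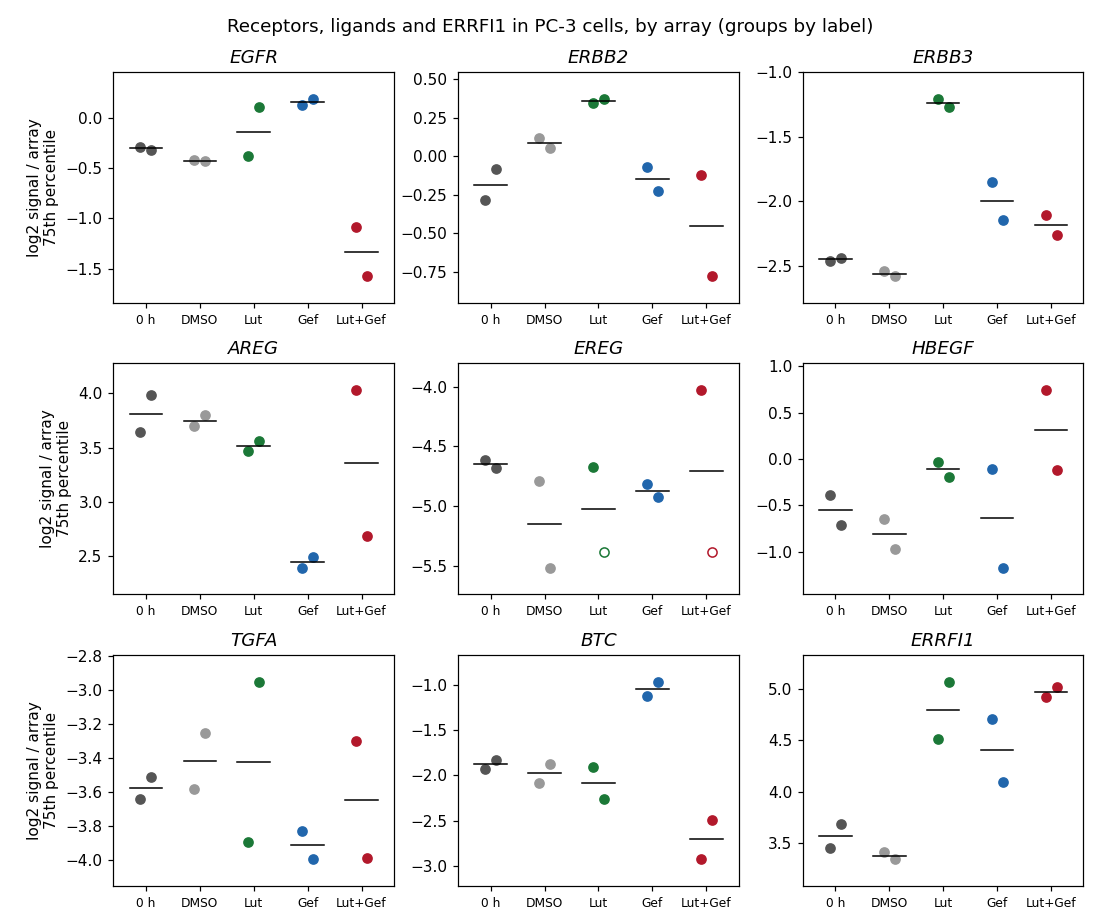
Log2 signal over each array's 75th percentile (y axis) for 9 members on each of the 10 arrays, by labelled group (x axis); each point is 1 array, lines are group means, and open points were not well above background. ERRFI1 lay between 4.10 and 5.07 on the 6 arrays of drug-treated cells and between 3.34 and 3.69 on the other 4.

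EGFR encodes the receptor that gefitinib targets, and its signal was lowest on the combination-labelled arrays. The EGFR probe lies at chr7:55242335-55242394 (hg18) and was printed in 10 spots per array. Its log2 relative signal was -0.29 and -0.32 at 0 h, -0.43 and -0.43 with DMSO, -0.39 and 0.11 on luteolin-labelled, 0.13 and 0.19 on gefitinib-labelled and -1.09 and -1.57 on combination-labelled arrays. Both combination-labelled arrays lay below all others, and both gefitinib-labelled arrays above all others. The SD over the 10 spots of an array was between 0.05 and 0.11, a measure of technical noise within an array. Against DMSO, EGFR was 1.87-fold lower on combination-labelled arrays (log2 change -0.91, SE 0.22, limma adjusted p = 0.0136), which passed the p threshold but not 2-fold. The change was -0.66 within slide 2 and -1.15 within slide 3. Without combination-labelled replicate 1 it was -1.15 and called (adjusted p = 0.00665), and without combination-labelled replicate 2 or either DMSO array the adjusted p lay between 0.0618 and 0.0727. Gefitinib-labelled arrays differed from DMSO by 0.58 (SE 0.22, adjusted p = 0.0493), a value at the edge of the threshold, and with slide as a block the adjusted p was 0.13. Luteolin-labelled arrays differed by 0.29 (SE 0.22, adjusted p = 0.377, 95% interval -0.21 to 0.78). In the order of the group means, only the step from the combination-labelled arrays to DMSO, the next group up, passed the threshold.

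ERBB3, the neuregulin receptor that signals through its partners, rose on luteolin-labelled arrays. Its values, from a probe at chr12:54782427-54782486 (hg18), were -2.46 and -2.44 at 0 h, -2.54 and -2.58 with DMSO, -1.20 and -1.27 on luteolin-labelled, -1.85 and -2.15 on gefitinib-labelled and -2.11 and -2.26 on combination-labelled arrays. All 6 drug-treated arrays lay above the other 4. The luteolin-labelled arrays were 2.50-fold above DMSO (log2 change 1.32, SE 0.16, adjusted p = 0.00129), with 1.34 within slide 2 and 1.31 within slide 3. On gefitinib-labelled arrays the change was 0.56 (SE 0.16, adjusted p = 0.018), past the p threshold but under 2-fold, and on combination-labelled arrays 0.38 (SE 0.16, adjusted p = 0.0894). Luteolin-labelled arrays stood above gefitinib-labelled ones, the next group down, by 0.76 (adjusted p = 0.00419). The other ERBB3 probes, well above background on 3 arrays and on 1 array, were not tested.

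ERBB2, the partner receptor without a known ligand, had no called change in any comparison. The ERBB2 probe at chr17:35138355-35138414 (hg18), also printed in 10 spots, gave -0.29 and -0.08 at 0 h, 0.12 and 0.05 with DMSO, 0.34 and 0.37 on luteolin-labelled, -0.07 and -0.23 on gefitinib-labelled and -0.12 and -0.78 on combination-labelled arrays. No step between neighbouring groups in the order of means passed the threshold. Against DMSO the changes were 0.27 (SE 0.22, adjusted p = 0.408), -0.23 (adjusted p = 0.395) and -0.54 (adjusted p = 0.082) on luteolin-, gefitinib- and combination-labelled arrays. The 95% interval of the last, -1.04 to -0.03, includes a 2-fold fall. Its 2 arrays lay 0.24 and 0.83 below the DMSO array of their own slide.

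Among the ligands, AREG (amphiregulin) fell on gefitinib-labelled arrays. The AREG probe lies at chr4:75539382-75539441 (hg18), and older genome builds carried a near-identical copy of the gene, AREGB, whose transcript the probe could not be told to spare. Its values were 3.64 and 3.98 at 0 h, 3.69 and 3.80 with DMSO, 3.47 and 3.56 on luteolin-labelled, 2.39 and 2.49 on gefitinib-labelled and 4.03 and 2.69 on combination-labelled arrays. Both gefitinib-labelled arrays lay below all others, and the combination-labelled arrays were far apart, 1 above all other arrays and the other just above the gefitinib-labelled pair. The fall against DMSO on gefitinib-labelled arrays was 2.47-fold (log2 change -1.31, SE 0.37, adjusted p = 0.0174). Its size was -1.30 within slide 2, the only slide that held both groups. Leaving out either gefitinib-labelled or either DMSO array kept a change of -1.36 to -1.25 with adjusted p between 0.0507 and 0.0786, so the call needed all 4 arrays. On luteolin-labelled arrays the change was -0.23 (adjusted p = 0.689). On combination-labelled arrays it was -0.39 (adjusted p = 0.418) and went up on slide 2 (0.34) and down on slide 3 (-1.11). Without combination-labelled replicate 1 alone it was -1.06 and called (adjusted p = 0.0054).

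BTC (betacellulin), a neighbour of AREG and EREG on chromosome 4, was higher on gefitinib-labelled and lower on combination-labelled arrays. Values of the brighter probe, at chr4:75894862-75894921 (hg18), were -1.92 and -1.82 at 0 h, -2.08 and -1.88 with DMSO, -1.91 and -2.26 on luteolin-labelled, -1.12 and -0.96 on gefitinib-labelled and -2.93 and -2.49 on combination-labelled arrays. The gefitinib-labelled pair lay above and the combination-labelled pair below all other arrays, as for EGFR. Against DMSO the changes were 0.94 (SE 0.21, adjusted p = 0.00638) and -0.73 (SE 0.21, adjusted p = 0.0236), both past the p threshold and short of 2-fold. Without gefitinib-labelled replicate 1 or DMSO replicate 2 the first was 1.02 or 1.04 and called. Within slide 2 the change on the gefitinib-labelled array was 0.96, and on combination-labelled arrays it was -0.85 within slide 2 and -0.62 within slide 3. The dimmer probe, at chr4:75890677-75890736, gave 0.95 on gefitinib-labelled arrays (SE 0.19, adjusted p = 0.00407) and only -0.26 on combination-labelled arrays (SE 0.19, adjusted p = 0.286), so the 2 probes disagree on the fall. Luteolin-labelled arrays differed from DMSO by -0.11 (adjusted p = 0.749, 95% interval -0.58 to 0.36).

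HBEGF (heparin-binding EGF-like growth factor) rose on combination-labelled arrays. Its brighter probe, at chr5:139693236-139693295 (hg18), gave -0.39 and -0.71 at 0 h, -0.65 and -0.96 with DMSO, -0.03 and -0.19 on luteolin-labelled, -0.11 and -1.17 on gefitinib-labelled and 0.74 and -0.12 on combination-labelled arrays. The combination-labelled arrays did not overlap with DMSO but 1 of them lay among the luteolin-labelled arrays, and the 2 gefitinib-labelled arrays were far apart. The change against DMSO was 1.12 (SE 0.38, 2.17-fold, adjusted p = 0.0456), with 1.39 within slide 2 and 0.84 within slide 3. The dimmer probe, at chr5:139695692-139695751, also rose, by 1.16 (SE 0.24, adjusted p = 0.00832). The call on the brighter probe was lost without combination-labelled replicate 1 (0.69, adjusted p = 0.212), without DMSO replicate 1 (1.28, adjusted p = 0.101) or replicate 2 (0.96, adjusted p = 0.189), and without either 0 h array (adjusted p = 0.0607) or either luteolin-labelled array (adjusted p = 0.0645). Changes on luteolin-labelled (0.70, SE 0.38, adjusted p = 0.22) and gefitinib-labelled arrays (0.17, SE 0.38, adjusted p = 0.732) did not pass.

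EREG (epiregulin) and TGFA (transforming growth factor alpha) showed no change past the threshold on their main probes in any comparison with DMSO. The EREG probe, at chr4:75472873-75472932 (hg18), was well above background on 8 arrays, with values of -4.61 and -4.68 at 0 h, -4.79 and -5.52 with DMSO, -4.67 and -5.38 on luteolin-labelled, -4.82 and -4.92 on gefitinib-labelled and -4.03 and -5.38 on combination-labelled arrays. Pairs of the DMSO, luteolin-labelled and combination-labelled groups spread over more than the differences between groups. The largest change of this probe against DMSO was 0.45 (SE 0.44, adjusted p = 0.433). The other EREG probe was well above background on 3 arrays, at -4.95 and -5.27 at 0 h and at -3.13 on combination-labelled replicate 1. Its value on combination-labelled replicate 2 was -5.37, not well above background, and the change of the pair against DMSO was 1.52 (SE 0.58, limma adjusted p = 0.0648). Since that replicate and both DMSO arrays were not well above background, no lower limit of the fold is given. The TGFA probe, at chr2:70528827-70528886 (hg18), gave -3.64 and -3.51 at 0 h, -3.58 and -3.25 with DMSO, -3.90 and -2.95 on luteolin-labelled, -3.83 and -4.00 on gefitinib-labelled and -3.30 and -3.99 on combination-labelled arrays. Both gefitinib-labelled arrays lay below DMSO, by 0.50 on average (log2 change -0.50, SE 0.33, adjusted p = 0.234, 95% interval -1.26 to 0.26), and the sign turned to 0.10 with the normexp background correction. NRG1, a ligand of ERBB3, was not well above background with any of its 4 probes on any of the 10 arrays, so only an upper bound on its signal is known.

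ERRFI1, the inhibitor of the receptor kinases, rose in all 3 drug groups. The brighter probe, at chr1:7994795-7994854 (hg18), gave 3.45 and 3.69 at 0 h, 3.41 and 3.34 with DMSO, 4.51 and 5.07 on luteolin-labelled, 4.71 and 4.10 on gefitinib-labelled and 4.92 and 5.02 on combination-labelled arrays. Every drug-treated array lay above every 0 h and DMSO array. Relative to DMSO the rise was 2.67-fold on luteolin-labelled arrays (log2 change 1.42, SE 0.25, adjusted p = 0.00575), with 1.10 within slide 2 and 1.73 within slide 3. It was 3.02-fold on combination-labelled arrays (1.59, SE 0.25, adjusted p = 0.00314), with 1.51 within slide 2 and 1.68 within slide 3. On gefitinib-labelled arrays it was 2.04-fold (1.03, SE 0.25, adjusted p = 0.0101) and 1.30 within slide 2. That last rise fell to 0.43 (adjusted p = 0.172) with quantile normalization and to 0.72 (adjusted p = 0.0597) without gefitinib-labelled replicate 1, and was 1.00 (adjusted p = 0.0566) without DMSO replicate 2. The call on gefitinib-labelled arrays was also lost with the normexp background correction and with 0 h as the reference (0.84, under 2-fold). The dimmer probe, at chr1:7996054-7996113, rose by 1.30 (SE 0.21, adjusted p = 0.00385), 1.24 (adjusted p = 0.00247) and 1.73 (adjusted p = 0.00137) on luteolin-, gefitinib- and combination-labelled arrays. No pair of drug groups differed in ERRFI1 past the threshold. The differences were 0.39 between luteolin- and gefitinib-labelled arrays (95% interval -0.19 to 0.97), 0.18 between combination- and luteolin-labelled arrays (-0.41 to 0.76) and 0.56 between combination- and gefitinib-labelled arrays (-0.02 to 1.14), so the last interval reaches beyond 2-fold.

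**Figure D2:**
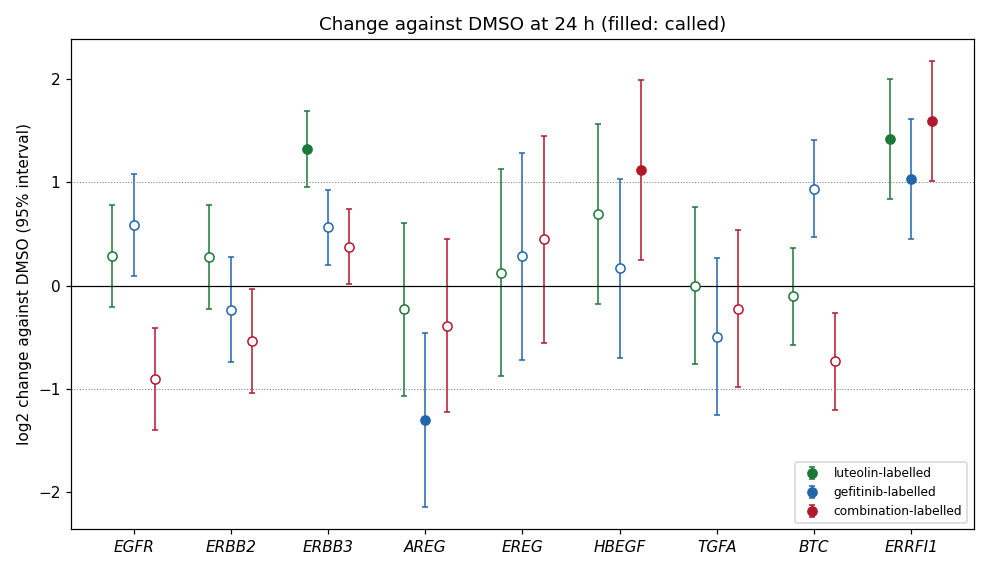
Log2 change against DMSO (y axis, points with 95% intervals from limma) of 9 members (x axis) on luteolin-, gefitinib- and combination-labelled arrays, 2 arrays a group; filled points were called and dotted lines mark 2-fold. ERRFI1 is the 1 gene with filled points in all 3 groups, at 1.42, 1.03 and 1.59.

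**Figure D3:**
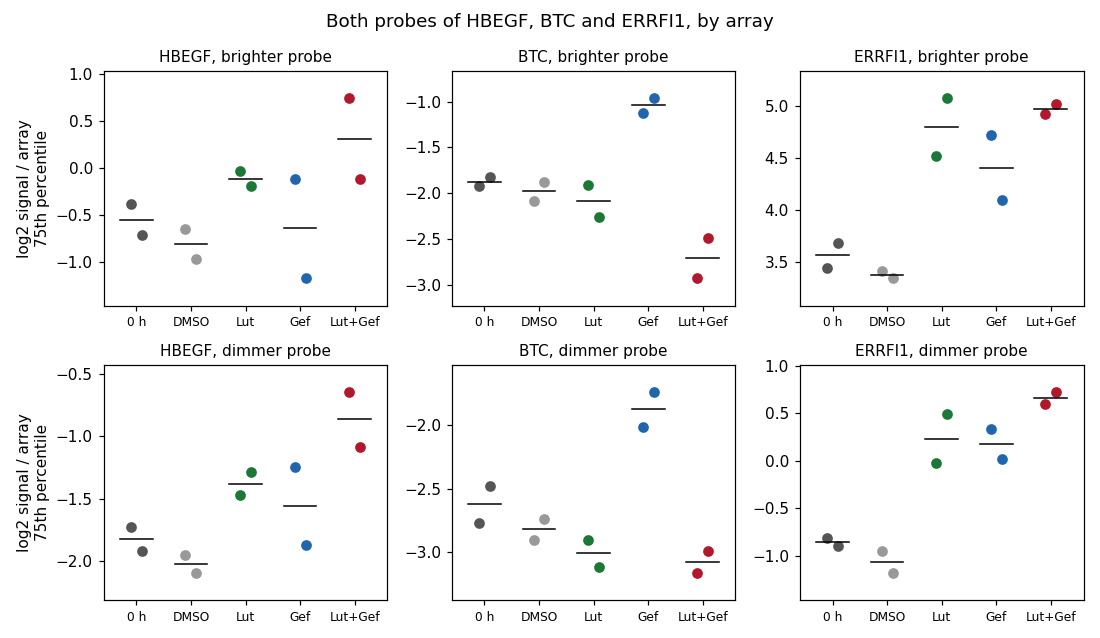
Log2 signal over each array's 75th percentile (y axis) of the brighter (top) and dimmer (bottom) probe of HBEGF, BTC and ERRFI1 by labelled group (x axis); points are arrays and lines group means. The BTC probes both stood highest on gefitinib-labelled arrays, and the combination-labelled change was -0.73 on the brighter and -0.26 on the dimmer probe.

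Comparisons between the drug groups separated EGFR, AREG and BTC. These comparisons rest on the labels and read differently under the file names. Between luteolin-labelled and gefitinib-labelled arrays, 1 of 9 members was higher and 1 lower, where 18.1% and 18.5% of all genes were. AREG was 2.11-fold higher on luteolin-labelled arrays (log2 difference 1.07, SE 0.37, adjusted p = 0.0334) and BTC 2.06-fold lower (-1.04, SE 0.21, adjusted p = 0.00306). With slide as a block the AREG difference was 1.08 with adjusted p = 0.0789, and without any one of its 4 arrays it was 1.02 to 1.13 with adjusted p between 0.082 and 0.118. BTC was -0.86 without luteolin-labelled replicate 2 and -0.96 without gefitinib-labelled replicate 2, under 2-fold, and HBEGF was called higher (1.06) without gefitinib-labelled replicate 1. Between combination-labelled and luteolin-labelled arrays, 0 members were higher and 1 was lower, beside 11.3% and 9.76% of all genes. EGFR was 2.29-fold lower on combination-labelled arrays (-1.19, SE 0.22, adjusted p = 0.00419), and under 2-fold but past the p threshold were ERBB2 (-0.81, adjusted p = 0.0204), ERBB3 (-0.95, adjusted p = 0.00319) and BTC (-0.63, adjusted p = 0.0393). The EGFR call did not hold without luteolin-labelled replicate 2 or combination-labelled replicate 2, where the difference was -0.95 in each case and thus under 2-fold, while ERBB2 (-1.14) and ERBB3 (-1.02) were called too without combination-labelled replicate 1. Between combination-labelled and gefitinib-labelled arrays, 0 members were higher and 2 were lower, beside 17.2% and 9.76% of all genes. EGFR was 2.81-fold lower (-1.49, SE 0.22, adjusted p = 0.000959) and BTC 3.18-fold lower (-1.67, SE 0.21, adjusted p = 0.000438). Within slide 2, the only slide with both groups, the differences were -1.22 for EGFR and -1.80 for BTC. Without combination-labelled replicate 2, AREG (1.59) and HBEGF (1.39) were also called higher, and HBEGF (1.48) without gefitinib-labelled replicate 1. The second EREG probe also passed the threshold against luteolin- and gefitinib-labelled arrays (adjusted p = 0.0216 and 0.0138), where it was not well above background, but these calls rest on combination-labelled replicate 1, the 1 of the 6 arrays on which it was.

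The interaction asks whether the change with both labels differs from the sum of the changes with each label, all against DMSO on the log2 scale. It passed the threshold in 3 of 9 members (EGFR, ERBB3 and BTC), below 0 in each, where 17.9% of all genes passed above 0 and 16.3% below it. For EGFR the single changes of 0.29 and 0.58 stood beside a change of -0.91 on combination-labelled arrays (interaction -1.78, SE 0.31, adjusted p = 0.00356). ERBB3 had 1.32 and 0.56 singly and 0.38 on combination-labelled arrays (-1.51, SE 0.23, adjusted p = 0.00197). BTC had -0.11 and 0.94 singly and -0.73 on combination-labelled arrays (-1.56, SE 0.29, adjusted p = 0.0048), and its dimmer probe also passed (-1.02, SE 0.26, adjusted p = 0.0187). The second EREG probe passed above 0 (2.80, SE 0.82, limma adjusted p = 0.0303). Among the arrays of these groups it was well above background only on combination-labelled replicate 1. The interaction of AREG was 1.15 (SE 0.52, adjusted p = 0.121) and that of ERRFI1 -0.86 (SE 0.36, adjusted p = 0.099). Leaving out 1 array added AREG (1.82, without combination-labelled replicate 2), ERBB2 (-0.91, without combination-labelled replicate 1) or ERRFI1 (-1.16, without gefitinib-labelled replicate 2). Under the file names' treatments, the sign turned for EGFR (1.20, adjusted p = 0.0134) and BTC (1.77, adjusted p = 0.00182) and held for ERBB3 (-1.14). ERRFI1 (-1.98, adjusted p = 0.00284) and HBEGF (-1.65, adjusted p = 0.0363) then passed as well, and AREG was -0.69 (adjusted p = 0.321). The direction for EGFR and BTC thus depends on which source of the treatments is right.

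**Figure D4:**
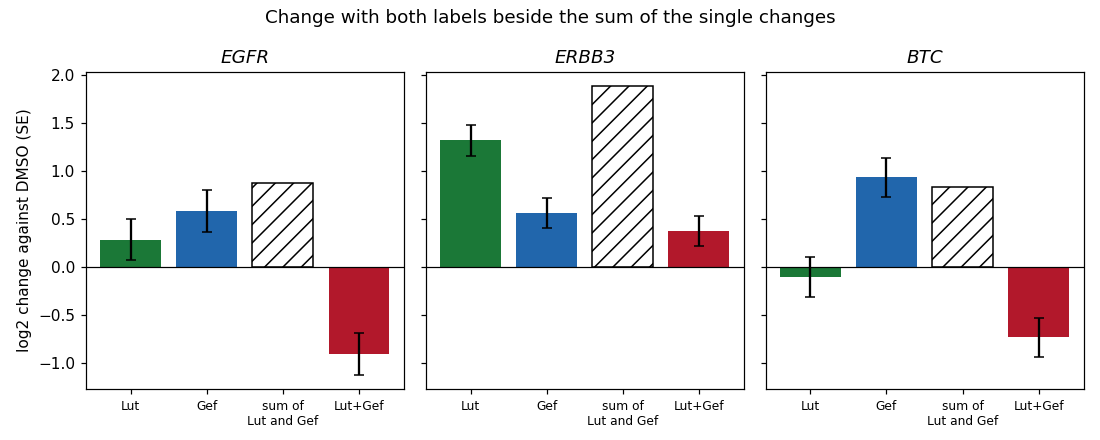
Log2 change against DMSO (y axis, bars with SE) of EGFR, ERBB3 and BTC on luteolin-, gefitinib- and combination-labelled arrays, with the sum of the single changes as a hatched bar without error. The combination-labelled bar lies below the sum in each panel, by 1.78 for EGFR, 1.51 for ERBB3 and 1.56 for BTC.

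DMSO at 24 h was compared with untreated cells at 0 h as the background of the design. Of the 9 members, 0 rose and 0 fell, beside 0.0254% and 0.0101% of all genes. At an unadjusted limma p under 0.05 the count was also 0 of 9. The methods' t-test called 0 too, but it was counted only at 2-fold or more, so small changes could not count. The member changes ran from -0.51 for EREG (SE 0.44) to 0.27 for ERBB2 (SE 0.22), and adjusted p was at least 0.983 for each. EGFR differed by -0.12 (SE 0.22, 95% interval -0.62 to 0.38) and ERRFI1 by -0.19 (SE 0.25, 95% interval -0.77 to 0.39). With 0 h in place of DMSO as the reference, EGFR on combination-labelled arrays was 2.04-fold lower (log2 change -1.03, adjusted p = 0.00854) and ERRFI1 on gefitinib-labelled arrays 0.84 higher (adjusted p = 0.0232).

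The other genes of the pathway are given by counts beside those of all genes. Of a list of 51 ligands, sheddases, regulators of receptor turnover, adaptors, cascade kinases and ERK output genes, 48 were tested. On gefitinib-labelled arrays 0 rose and 8 fell (0% and 16.7%, beside 15.6% and 14.3% of all genes), on combination-labelled arrays 1 rose and 8 fell (2.08% and 16.7%, beside 12.1% and 7.69%), and on luteolin-labelled arrays 4 rose and 2 fell (8.33% and 4.17%, beside 7.22% and 6.17%). The median change was -0.28, -0.01 and 0.06 (log2) in that order, and with DMSO against 0 h limma called 0 of 48, with 3 at an unadjusted p under 0.05. Some falls reached 2-fold only through signals below background. Their lower limits were 1.49-fold (EGF) and 1.70-fold (UBASH3B) on gefitinib-labelled arrays. On combination-labelled arrays they were 1.25-fold (CBLC), 1.33-fold (ERBB4) and 1.93-fold (EGF). The fall of SOS1 on gefitinib-labelled arrays also used such a signal, on 1 of its 2 arrays, and has no lower limit given. The shares of all genes were counted by the same rule. Of 12 ERK output genes, 3 fell on gefitinib-labelled and 2 on combination-labelled arrays, while 2 rose and 1 fell on luteolin-labelled arrays. DUSP6, a phosphatase that inactivates ERK and is itself induced by it, was at 3.21 and 3.33 at 0 h, 3.90 and 3.72 with DMSO, 3.66 and 3.62 on luteolin-labelled, 0.25 and -0.21 on gefitinib-labelled and 3.28 and 2.53 on combination-labelled arrays. It fell 13.8-fold on gefitinib-labelled arrays (log2 change -3.79, SE 0.26, adjusted p = 7.44e-05), where both arrays lay far below the other 8. SPRED1 and SPRY4, which restrain the cascade, fell there by 1.36 and 1.51, and SPRED1 also fell by 1.51 on combination-labelled arrays (adjusted p = 0.00242). EGR1, an immediate early transcription factor, was not well above background at 0 h or on luteolin-labelled arrays. On luteolin-labelled arrays it was at least 3.31-fold lower than with DMSO. The fitted change, on the dim signals as read, was -3.07 (limma adjusted p = 0.0105). EGR1 with DMSO was -2.74 and -4.87, against -6.96 and -7.20 at 0 h (difference 3.28, adjusted p = 0.247), and luteolin-labelled arrays differed from 0 h by 0.20 (adjusted p = 0.841).

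Of 10 regulators of receptor turnover and inhibition, 3 fell on gefitinib-labelled, 2 on combination-labelled and 0 on luteolin-labelled arrays, where 14.3%, 7.69% and 6.17% of all genes fell, and 0 rose in any drug group. These counts are too small to be read as a result about the list. UBASH3B was at -4.33 and -4.24 with DMSO and not well above background on gefitinib- or combination-labelled arrays, at least 1.70-fold and 2.21-fold lower. Its fitted changes were -2.89 and -2.18 (limma adjusted p = 0.000101 and 0.000883). Fitted changes use dim signals as read, and the adjusted p belongs to them and not to the lower limits. LRIG3, a membrane protein of the family of the receptor inhibitor LRIG1, was at least 2.83-fold lower on gefitinib-labelled arrays (fitted change -2.01, adjusted p = 0.00506). SOCS5 fell there by 1.15 (SE 0.17, adjusted p = 0.0016). CBLC, a ubiquitin ligase of the CBL family, was not well above background on combination-labelled arrays and at least 1.25-fold lower there. Its fitted change was -2.56 (adjusted p = 0.000728). Of the other ligands and the remaining receptor, ERBB4 rose 6.23-fold on luteolin-labelled arrays, from -5.18 and -4.85 with DMSO to -2.55 and -2.20 (SE 0.37, adjusted p = 0.00212), and was at least 1.33-fold lower on combination-labelled arrays. NRG2 fell 3.45-fold on combination-labelled arrays (-1.79, SE 0.22, adjusted p = 0.00137). EGF was at least 1.49-fold lower than with DMSO on gefitinib-labelled and 1.93-fold lower on combination-labelled arrays. With DMSO it was 1.26 above 0 h (limma adjusted p = 0.528). Against 0 h the fitted EGF differences were 0.14 on gefitinib-labelled and -0.26 on combination-labelled arrays (limma adjusted p = 0.748 and 0.573). Among 6 sheddase genes, ADAM17, the main sheddase of several EGFR ligands, rose 2.14-fold on luteolin-labelled arrays (1.10, SE 0.18, adjusted p = 0.00359), and ADAM12 fell there by 1.19 and on combination-labelled arrays by 1.16. The adaptor SOS1 had a fitted fall of 2.34-fold on gefitinib-labelled arrays (limma adjusted p = 0.00612). Its values there were -5.49, not well above background, and -4.71, beside -3.95 and -3.79 with DMSO. The size of that fall thus rests in part on a dim signal. NRAS was the 1 of 10 cascade genes called, 2.16-fold higher on combination-labelled arrays (adjusted p = 0.0126).

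**Figure D5:**
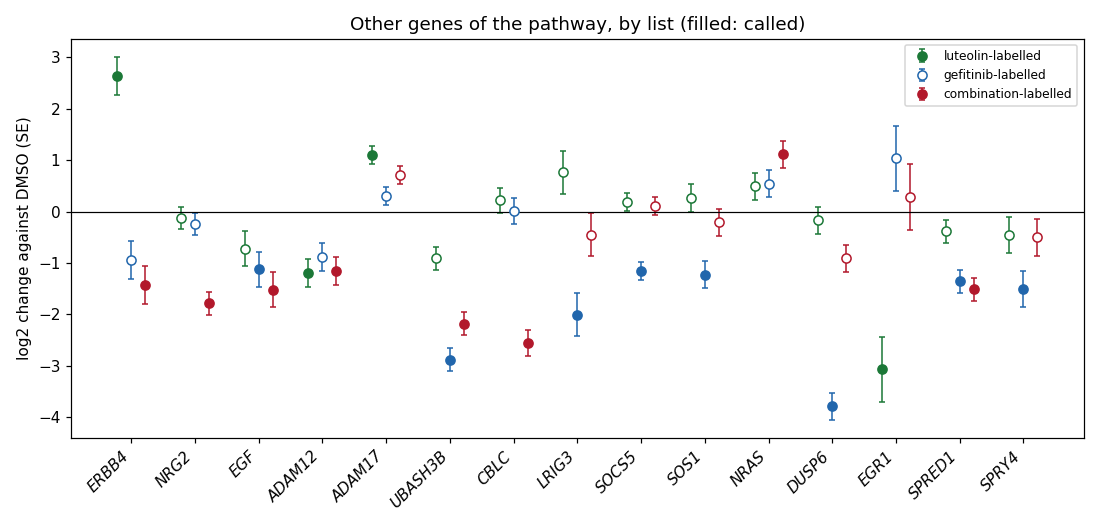
Log2 change against DMSO (y axis, points with SE) of the genes named from the pathway lists (x axis), on luteolin-, gefitinib- and combination-labelled arrays; filled points were called, and points of a group below background are fitted values. DUSP6 on gefitinib-labelled arrays (-3.79) and ERBB4 on luteolin-labelled arrays (2.64) are the lowest and the highest points.

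The genes most like EGFR and ERRFI1 over the 10 arrays are given as a description. Among 16262 genes well above background on all arrays, EGFR correlated most with PARD3 (Pearson r = 0.982), IMPA2 (0.980) and GID4 (0.972). ERRFI1 correlated most with TMUB1 (0.982), H2AC18 (0.982) and ASPRV1 (0.980). The 10 arrays come from 5 groups, so these values mostly follow differences between groups.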

How the data were processed

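PC-3 RNA was measured on 10 single-color Agilent arrays. As deposited by the authors, the intensity values are Feature Extraction's processed signal (version 10.7.3.1 in the file headers), background-subtracted within the array and not normalized between arrays. The table of values held the same signal for all 45015 spots (relative tolerance 1e-04). No column of per-sample values was left unused.

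Using limma 3.58.1 in R 4.3.3, outlier and control spots were dropped, signals were taken as log2 relative to the array's 75th percentile of non-control spots, and spots of a probe were averaged. Probes well above background (at least 50% of spots) on both arrays of at least 1 group were kept, 28774 of 41000, for 19717 genes. On each array 63.4% to 70.4% of probes were well above background. A gene was represented by its brightest probe. Names came from the scanner files or, by accession, from RefSeq (23958 probes matched). Probe coordinates are hg18, without exon or UTR annotation. All 5 groups entered 1 limma model (5 residual and 3.36 prior degrees of freedom), with Benjamini-Hochberg adjustment over all probes kept and calls at 2-fold or more with adjusted p under 0.05, or at adjusted p alone for the interaction. A fold against a group below background is given as a lower limit, the dim signal being raised to the lowest that counted as well above background on its array. An adjusted p beside such a limit belongs to the fitted change, taken on the signals as read. No paired design was assumed. Groups follow the labels, and file-name treatments were an alternative. The 2 arrays per group limit precision. The other alternatives were the normexp correction (offset 50), quantile normalization, other filters, blocks, smaller fits, the methods' t-test and leaving out arrays. The script was tested on simulated data.

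The members, the lists and the tests were chosen with earlier results of these data known. All 10 members were named. Of each pathway list, the genes called against DMSO in at least 1 drug group were named, at most the 4 with the largest change, and for EGFR and ERRFI1 the 3 genes with the highest correlation over the arrays. Some marker genes of the cell type check are not reported here.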

Additional observations from a re-analysis of the deposited data

Results flagged for a closer look

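The interaction of the drugs tests whether the change on combination-labelled arrays differs from the sum of the changes on luteolin-labelled and gefitinib-labelled arrays. It passed the limma adjusted p threshold in 3 members, by their brightest probes. It was -1.78 (log2, adjusted p = 0.00356) for EGFR, -1.51 (adjusted p = 0.00197) for ERBB3 and -1.56 (adjusted p = 0.0048) for BTC. Each of the 3 passed under all 20 alternatives run for it. Under the file names' treatments the value was 1.20 for EGFR and 1.77 for BTC, and -1.14 for ERBB3. No group held the 4 arrays that a test for a single outlying array needs.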

How the results depend on the processing

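Of the 14 calls of members, HBEGF on combination-labelled arrays was kept least, called under 10 of 24 alternatives (log2 change 0.17 to 1.55). Next was AREG between luteolin- and gefitinib-labelled arrays, called under 15 of 23. The counts in this paragraph include the file names' treatments, an alternative of labels and not of processing. The 0.17 comes from it, where combination means the gefitinib-labelled arrays. ERRFI1 against DMSO was called under 22, 17 and 23 of 24 alternatives on luteolin-, gefitinib- and combination-labelled arrays, and ERBB3 on luteolin-labelled arrays under 22 of 24. The causes of lost calls were not tested.

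With the treatments of the file names, signs turned as follows. AREG became -1.07 between combination and gefitinib and -0.16 between luteolin and gefitinib. BTC became 1.04 between combination and gefitinib, 1.67 between combination and luteolin and 1.77 for the interaction. EGFR became 0.30, 1.49 and 1.20 in the same order, and HBEGF -1.65 for the interaction. The number of members called then was 1 for luteolin against gefitinib, 2 for combination against luteolin and 5 for the interaction.

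Counts of members called moved by over 1.5 times as follows. Against DMSO on gefitinib-labelled arrays, 1 was called with normexp, with quantile normalization and with 0 h as reference, and 5 with no minimum fold. On combination-labelled arrays, 1 was called with quantile normalization, without a filter and with only the compared groups in the fit, and 4 with no minimum fold. Between luteolin- and gefitinib-labelled arrays, 1 was called with normexp, without a filter and with slide as a block. Between combination- and luteolin-labelled arrays, 4 were called with no minimum fold. At 2-fold or more, the methods' t-test called 1 member unadjusted in each drug group against DMSO and between luteolin- and gefitinib-labelled arrays. It called 0 in the other 2 comparisons of drug groups, and 0 in every comparison after Benjamini-Hochberg adjustment. Leaving out 1 array gave 2 to 2 members called on luteolin-labelled, 1 to 2 on gefitinib-labelled and 1 to 3 on combination-labelled arrays against DMSO. It gave 0 to 2 between luteolin- and gefitinib-labelled, 0 to 3 between combination- and luteolin-labelled, 2 to 4 between combination- and gefitinib-labelled arrays, and 3 to 4 for the interaction. The lone array left in a group was then assumed to vary like the others.

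The replicate block left each count of members called as it was (2, 2 and 2 against DMSO, 0 for DMSO against 0 h, 2, 1 and 2 between drug groups and 3 for the interaction). Samples with the same number deviated together with correlations of -0.098 to 0.293 between groups, so the numbers were not taken to pair the arrays. Signal over background and 2 arrays per group limit EREG and NRG1 most.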
